A study of Homo sapiens with 15 samples.

Results

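The MYB family comprises 3 genes, MYB, MYBL1 and MYBL2, which were taken from 2 tables of protein-coding genes by gene symbol. They are 3 of 19604 gene entries in each table, and MYB and MYBL2 were among the 10819 genes of the drug table and the 10925 genes of the shRNA table with a mean of at least 1 FPKM (fragments per kilobase of transcript, corrected for the size of the library). MYBL1 stayed below that mean in both tables. Expression was measured by RNA sequencing in the cell line OCI-AML5, established from acute myeloid leukaemia, and the question asked was how RUNX1 knockdown and loss of BET protein function act in leukaemia cells with mutant RUNX1. All cells were of this single line and were kept in Alpha MEM medium that held 20% serum and the cytokine GM-CSF at 10 ng/mL, so every group shares that growth signal. The 15 libraries formed 5 groups of 3. ARV-825 cells received 1000 nM ARV-825 for 4 h, OTX015 cells received 1000 nM OTX015 for 4 h, and untreated control cells received no drug. RUNX1 shRNA cells and non-targeting shRNA cells had been transduced with their shRNA for 72 h, and the labels do not say how many hairpins were used. OTX015 binds the bromodomains of BET proteins, chromatin readers that recruit the transcription elongation machinery. ARV-825 joins the OTX015 scaffold through a linker to a ligand of cereblon, a ubiquitin ligase subunit, which marks BET proteins for destruction.

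The 3 proteins share a DNA-binding domain built of Myb repeats and recognise the same short DNA motif, but they serve different cells. MYB keeps immature blood cells dividing and unable to mature, works with the acetyltransferases CREBBP and EP300, and is a known dependency of acute myeloid leukaemia. MYBL2 is made in nearly all dividing cells, is itself switched on by E2F factors, and joins the MuvB complex to switch on genes of late cell cycle. MYBL1 is best known from male germ cells, where it drives meiotic genes, and from germinal centre B cells.

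The sequences just upstream of MYB and MYBL2 are shown because both genes respond to E2F factors in dividing cells while their levels behaved differently with the drugs. Each is the 250 bases before the RefSeq start site on the plus strand of GRCh38.p14, a different build from the hg19 build of the deposited values, at chr6:135181058-135181307 for MYB and chr20:43666864-43667113 for MYBL2. Capitals mark the E2F-type motif GGCGGGA.
MYB: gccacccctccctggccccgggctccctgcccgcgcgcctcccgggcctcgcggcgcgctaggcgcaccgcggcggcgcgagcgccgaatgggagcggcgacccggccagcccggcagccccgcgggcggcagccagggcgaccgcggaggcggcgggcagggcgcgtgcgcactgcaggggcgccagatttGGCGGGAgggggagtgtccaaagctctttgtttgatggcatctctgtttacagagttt
MYBL2: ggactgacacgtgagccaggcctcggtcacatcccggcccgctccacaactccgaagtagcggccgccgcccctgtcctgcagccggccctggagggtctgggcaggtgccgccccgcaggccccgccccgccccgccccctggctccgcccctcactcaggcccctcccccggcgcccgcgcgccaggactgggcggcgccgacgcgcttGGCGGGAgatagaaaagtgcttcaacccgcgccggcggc
GGCGGGA lay 58 to 52 bases before the start of MYB and 39 to 33 bases before the start of MYBL2, and 13.1% of 27305 RefSeq promoters of this length held it on either strand. G and C made up 75.6% of the MYB window and 76.8% of the MYBL2 window. The motif of the MYB proteins, AACNG, occurred once before MYB, on the minus strand 15 to 11 bases upstream, and not before MYBL2, and 70.8% of all promoters held it. An E-box, CACGTG, the motif of MYC, lay 243 to 238 bases before the start of MYBL2 and not in the MYB window, and 6.28% of promoters held one. The RUNX motif TGNGGT (38% of promoters) and the CHR motif TTTGAA of MuvB (13.9%) had no match in either window, which says only that these letters do not stand there. The motifs were searched on both strands and were chosen with these sequences in view.

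The FPKM sum ran from 554570 to 656995 per library. The median ran from 1.80 to 1.92 FPKM with ARV-825, 2.06 to 2.10 FPKM with OTX015 and 2.15 to 2.20 FPKM in control cells. These groups did not overlap. In the shRNA table the median ran from 2.52 to 2.56 FPKM in RUNX1 shRNA cells and 2.57 to 2.58 FPKM in non-targeting cells. Entries at 1 FPKM or more numbered 10496 to 10588 with ARV-825, 10638 to 10703 with OTX015 and 10738 to 10780 in control cells. Quantile normalization within each table draws libraries together, so these values do not show how alike they were before it. The tables hold no read counts, so the depth is unknown and intervals for counting error are not given. Of 11 myeloid markers 9 averaged at least 1 FPKM in either table, led by LYZ, and CD14 and ANPEP did not. Their summed level was 687 to 718 FPKM with ARV-825, 599 to 612 FPKM with OTX015 and 981 to 1049 FPKM in control cells. It was 801.5 to 827 FPKM in RUNX1 shRNA cells and 929 to 957 FPKM in non-targeting cells. LYZ, at a mean of 493 FPKM in the drug table and 454 FPKM in the shRNA table, weighs heavily in these sums. By limma at an adjusted p under 0.05, 4 of 9 tested markers were higher and 4 lower with RUNX1 shRNA. This stands beside 13.5% and 13.8% of all tested genes. ARV-825 had 2 higher and 6 lower (all genes 35.8% and 38.4%), and OTX015 had 0 and 7 (36.1% and 33.5%). Of 8 T and NK cell markers, 3 averaged at least 1 FPKM in the drug table and 2 in the shRNA table, with NKG7 and NCAM1 highest and CD2 at 0. Their sum was 67.3 to 71.7 FPKM with ARV-825, 47.8 to 48.1 FPKM with OTX015 and 47.2 to 49.0 FPKM in control cells, and 14.9 to 15.4 FPKM in RUNX1 shRNA cells and 19.5 to 21.1 FPKM in non-targeting cells. The part of these shifts in the family's results was not tested. Of 6 B cell and 8 erythroid markers, only CD79A and EPOR averaged at least 1 FPKM.

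RUNX1 averaged 38.7 ± 3.65 FPKM in RUNX1 shRNA cells and 70.6 ± 1.40 FPKM in non-targeting cells (SD, n = 3 each), whereas RUNX3, which appears in the titles of the RUNX1 shRNA libraries, averaged 28.4 and 27.0 FPKM in these groups. HEXIM1, a gene that BET inhibitors raise, averaged 49.6 FPKM with ARV-825, 92.0 FPKM with OTX015 and 11.3 FPKM in control cells. ARV-825 replicate 1 listed 6 of 13 mitochondrially encoded genes at 0, so a 0 can be a failed estimate. The p-values measure only how far these libraries spread, which may in part be technical.

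MYB was the most abundant member in control cells and fell steeply with both drugs, further with the degrader. It had 26.3, 26.5 and 25.5 FPKM in ARV-825 cells, 80.5, 79.8 and 87.4 FPKM in OTX015 cells, and 178, 183.7 and 180.0 FPKM in control cells. The 3 groups did not overlap, and each was tight around its mean of 26.1 ± 0.538, 82.6 ± 4.22 and 180.5 ± 2.88 FPKM (SD, n = 3 each). Here and below, separation of groups is description only, given without the share of all genes that separated likewise. ARV-825 thus left 14.4% of the control level, a 6.92-fold lower mean, and OTX015 left 45.7%, a 2.19-fold lower mean. Ranked by FPKM among all entries, MYB stood at places 2879 to 3020 with ARV-825, 786 to 891 with OTX015 and 351 to 354 in control cells. In bulk RNA, fewer cells of a type and less RNA per cell cannot be told apart, and since the strand of the libraries is not stated, reads of the antisense gene MYB-AS1 cannot be told apart from those of MYB.

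Expressed as changes of log2(FPKM + 1), MYB fell by 2.74 with ARV-825 against control (SE 0.0432, adjusted p = 2.23e-11, limma with Benjamini-Hochberg adjustment), and it fell by 2.75 without ARV-825 replicate 1. Among the 10819 genes tested, 25 fell further. Of the 2 members tested there, MYB and MYBL2, it was the 1 called lower. Among all tested genes 38.4% were called lower and 35.8% higher at an adjusted p under 0.05, so a call by itself was common. With OTX015 it fell by 1.12 (SE 0.0432, adjusted p = 6.37e-09), and 397 genes fell further. Again 1 of the 2 tested members was called lower, against 33.5% of tested genes called lower and 36.1% called higher.

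The direct comparison of both drugs at the same dose and time, with the degrader set against the inhibitor, separated MYB clearly. The MYB mean with ARV-825 was 31.6% of that with OTX015. The log2 difference was -1.62 (95% interval -1.72 to -1.53, adjusted p = 4.69e-09), and 14 of the tested genes had a larger fall. In that comparison 33.4% of genes were called lower and 24.7% higher, and 1 of the 2 tested members was called. The comparisons of each drug with control share the control libraries, so their values are given side by side.

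In RUNX1 shRNA cells the MYB level stayed close to that of non-targeting cells. The libraries had 163, 166 and 157 FPKM in RUNX1 shRNA cells, against 173, 170.3 and 169.7 FPKM in non-targeting cells, with means of 162 ± 4.77 and 171 ± 1.95 FPKM (SD, n = 3 each). Every RUNX1 shRNA library lay below every non-targeting library, again without a share of all genes to set beside it. The mean was 94.7% of the non-targeting mean, and the log2 difference of -0.08 had a 95% interval of -0.14 to -0.01 but missed the threshold after adjustment (adjusted p = 0.0707 by limma). Neither MYB nor MYBL2, the 2 members tested here, was called by limma, and 1 of them, MYB, was at an unadjusted p under 0.05. Of the 10925 tested genes 13.5% were called higher and 13.8% lower. The share called lower rests on 1512 genes, which became 978 without non-targeting replicate 2 and 966 without non-targeting replicate 3.

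**Figure D1:**
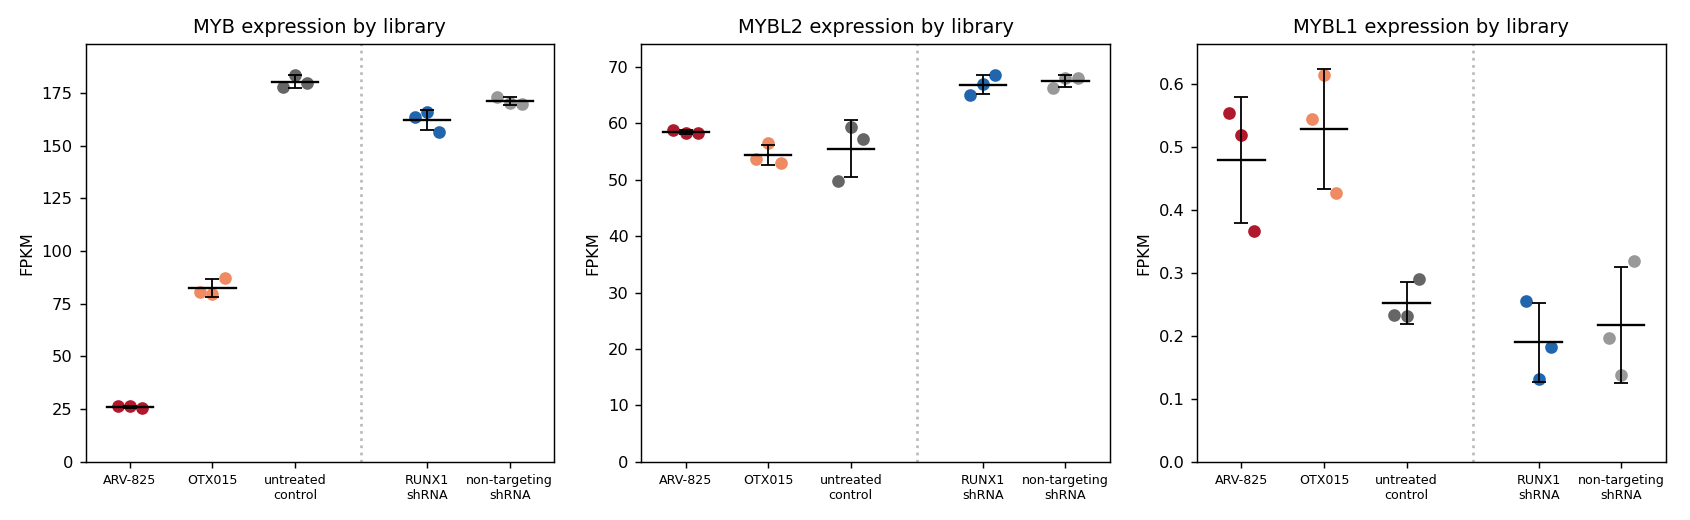
FPKM of MYB, MYBL2 and MYBL1 (vertical axes, each from 0) in each library (points) of the 5 groups, with the mean (long bar) and SD (whiskers) of 3 libraries, and a dotted line between the separately normalized tables. MYB lies near 26.1 FPKM with ARV-825, 82.6 FPKM with OTX015 and 180.5 FPKM in control cells, MYBL2 lies between 49.8 and 68.6 FPKM in all 15 libraries, and MYBL1 stays below 0.62 FPKM.

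MYBL2, the cell cycle member, was not called with either drug. It had 58.8, 58.4 and 58.3 FPKM in ARV-825 cells, 53.7, 56.4 and 53.0 FPKM in OTX015 cells, and 49.8, 59.4 and 57.2 FPKM in control cells. The groups overlapped with control, where replicate 1 was the lowest library of the 9, while the ARV-825 and OTX015 libraries did not overlap each other. The means were 58.5 ± 0.268, 54.4 ± 1.79 and 55.5 ± 5.07 FPKM (SD, n = 3 each).

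The log2 change of MYBL2 was 0.08 with ARV-825 against control (95% interval -0.05 to 0.21, adjusted p = 0.253 by limma) and -0.02 with OTX015 (95% interval -0.16 to 0.11, adjusted p = 0.734). These intervals leave room for a small change and are far from the fall of MYB in the same libraries. Between the drugs the difference was 0.10 (95% interval -0.03 to 0.24, adjusted p = 0.165) and reached the threshold when libraries were rescaled by median ratios (0.15, adjusted p = 0.0432). In the shRNA experiment MYBL2 had 65.1, 67.0 and 68.6 FPKM in RUNX1 shRNA cells, against 66.3, 68.1 and 68.1 FPKM in non-targeting cells. These groups overlapped, and the log2 change was -0.01 (95% interval -0.08 to 0.06, adjusted p = 0.784 by limma).

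MYBL1 was barely detected and rose with both drugs, without reaching 1 FPKM in any library. It had 0.553, 0.519 and 0.366 FPKM in ARV-825 cells, 0.544, 0.614 and 0.427 FPKM in OTX015 cells, and 0.233, 0.232 and 0.291 FPKM in control cells. Every drug library lay above every control library, and the ARV-825 and OTX015 libraries overlapped. The means were 0.479 ± 0.0996, 0.528 ± 0.0948 and 0.252 ± 0.0336 FPKM (SD, n = 3 each), so the mean was 1.90 times the control mean with ARV-825 and 2.10 times with OTX015.

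Because MYBL1 lay below the filter, its tests come from a limma fit over all 17105 genes above 0 in the drug table. There MYBL1 was the 1 of 3 members called higher, with log2 changes of 0.24 for ARV-825 (SE 0.06, adjusted p = 0.00959) and 0.29 for OTX015 (SE 0.06, adjusted p = 0.00451). In that fit 25.8% of genes were called higher and 29.2% lower with ARV-825, and 23.2% higher and 24.9% lower with OTX015. The size rests on the pseudocount at this level, since with 0.1 in place of 1 the changes were 0.71 and 0.83 (adjusted p = 0.0114 and 0.00602). Between the drugs MYBL1 differed by -0.05 (95% interval -0.19 to 0.09, adjusted p = 0.598), where 17.5% of genes were called higher and 22.2% lower.

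In the shRNA experiment MYBL1 had 0.255, 0.131 and 0.183 FPKM in RUNX1 shRNA cells, against 0.197, 0.138 and 0.319 FPKM in non-targeting cells. These groups overlapped. The log2 change was -0.03 (95% interval -0.19 to 0.13, adjusted p = 0.792, limma over 16527 genes without a filter), and 7.18% of those genes were called higher and 7.67% lower.

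**Figure D2:**
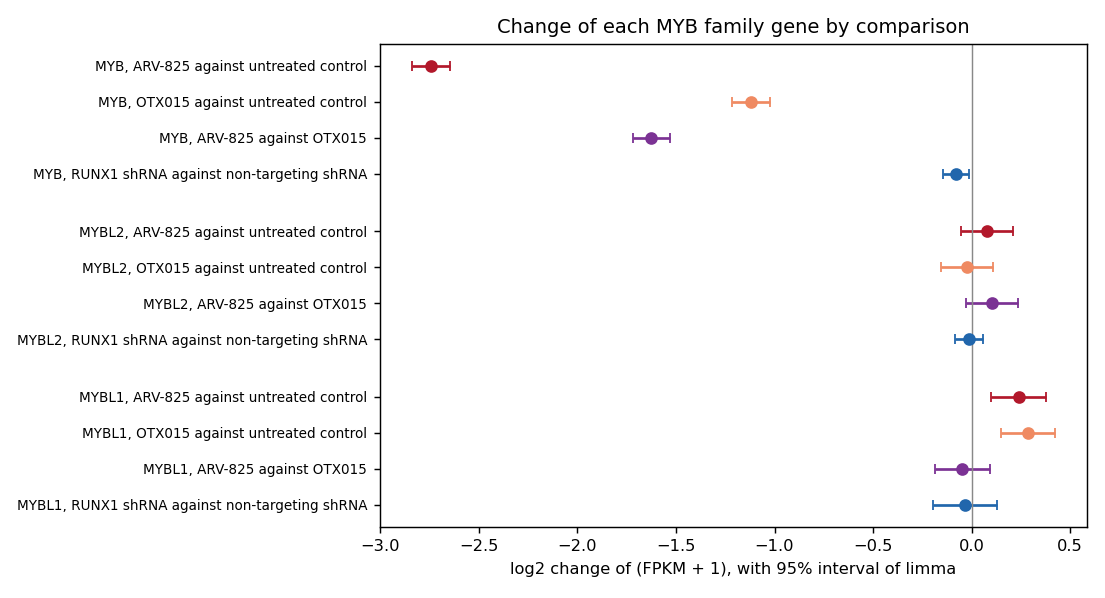
Change of log2(FPKM + 1) with its 95% limma interval (horizontal axis) for each MYB family gene in the 4 comparisons (rows, coloured by comparison). The MYB changes of -2.74 with ARV-825 and -1.12 with OTX015 stand apart from MYBL2, whose intervals include 0, and from MYBL1, whose drug changes of 0.24 and 0.29 lie above 0.

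As MYB fell while MYBL2 stayed between 49.8 and 59.4 FPKM in the 9 drug libraries, the order of the family turned over with the degrader. FPKM is scaled per length, so levels can be set beside each other. MYB made up 30.7% ± 0.372 of the summed FPKM of the 3 genes in ARV-825 cells, 60.0% ± 1.90 in OTX015 cells and 76.4% ± 1.42 in control cells (SD, n = 3 each). MYBL2 was above MYB in all 3 ARV-825 libraries and below it in the other 12. The family sum was 85.0 ± 0.807 FPKM with ARV-825, 137.5 ± 3.09 FPKM with OTX015 and 236 ± 7.74 FPKM in control cells.

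The ratio of MYB to MYBL2 was 0.446 ± 0.00842 in ARV-825 cells, 1.52 ± 0.119 in OTX015 cells and 3.27 ± 0.267 in control cells. A common factor between libraries cancels in this ratio, but quantile normalization is not a common factor and can alter it. Its log2 difference from control was -2.87 with ARV-825 and -1.11 with OTX015, and -1.77 between ARV-825 and OTX015, and no groups overlapped. A 2-sided exact permutation test gave p = 0.1 for each of these, the smallest it can give for 3 libraries against 3 (0.133 after adjustment over the 4 comparisons). In the shRNA experiment the ratio was 2.42 ± 0.122 in RUNX1 shRNA cells and 2.54 ± 0.0691 in non-targeting cells, a log2 difference of -0.07 (exact permutation p = 0.3, adjusted p = 0.3). MYB then made up 70.7% and 71.6% of the family sum.

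**Figure D3:**
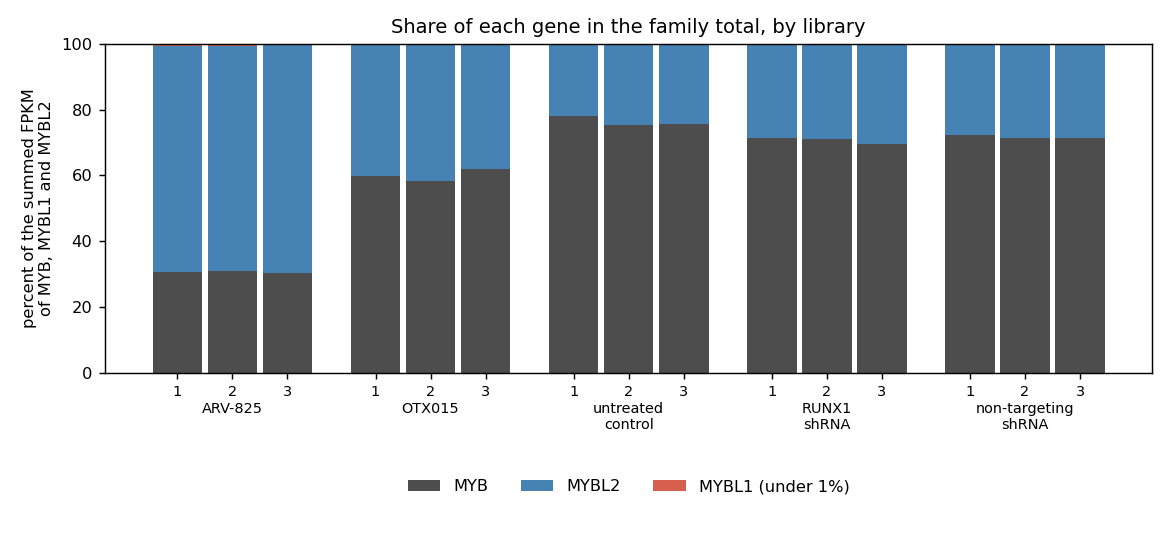
Share of MYB (dark), MYBL2 (blue) and MYBL1 (red) in the summed FPKM of the 3 genes (vertical axis, percent) for each library (bars, numbered by replicate within each group). MYB takes 30.3% to 31.0% with ARV-825, 58.3% to 62.1% with OTX015 and 75.5% to 78.1% in control cells, and MYBL1 is at most 0.646%, too thin to be seen.

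Genes reported elsewhere as MYB targets moved in both directions with the drugs. Of 24 such genes 17 were tested in the drug table. With ARV-825, 10 were called lower and 5 higher, with a median log2 change of -0.26 against -0.01 over all tested genes, of which 38.4% were called lower and 35.8% higher. MPO, a granule enzyme, with 1.40 FPKM with ARV-825, 0.653 FPKM with OTX015 and 1.01 FPKM in control cells, passed the filter only through the ARV-825 libraries. Without MPO, a count added after the values were seen, 10 of 16 were lower and 4 higher with ARV-825 (median -0.48). The largest falls were those of MYC, a growth regulator (-3.59), GFI1, a repressor of myeloid development (-1.87), BCL2, which blocks cell death (-1.85), and ADORA2B, an adenosine receptor (-1.74). CDK1, the mitotic kinase, rose by 0.59, HSPA5, a chaperone, by 0.58, CCNE1, a G1/S cyclin, by 0.51 and ADA, adenosine deaminase, by 0.34.

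With OTX015, 10 of the 17 reported targets were called lower and 4 higher, with a median of -0.22 against 0.03 over all tested genes, of which 33.5% were called lower and 36.1% higher, and without MPO 9 of 16 were lower and 4 higher (median -0.22). BCL2 (-1.80), ADORA2B (-1.48), MYC (-1.34) and CDK6, a G1 kinase (-0.90), fell most, and PTGS2, a prostaglandin synthase, rose by 0.69. Of the 4 called higher, CCNE1 (0.21) missed the threshold without OTX015 replicate 1 or without control replicate 2. MYB and MYC had lower levels with the degrader than with the inhibitor, but BCL2 had 3.89 FPKM with ARV-825, 4.06 FPKM with OTX015 and 16.6 FPKM in control cells. The BCL2 difference between the drugs was -0.05 (95% interval -0.22 to 0.12, adjusted p = 0.617 by limma). Between ARV-825 and OTX015 MYC (-2.25), GFI1 (-1.50), LMO2, a cofactor of blood stem cells (-1.28), and CXCR4, a chemokine receptor (-0.98), were lower. CD34, a progenitor surface protein (0.62), and ADA (0.56) were higher. Against control, however, CD34 was called lower with both drugs, by 0.22 with ARV-825 and by 0.83 with OTX015. It had 2.85 FPKM with ARV-825, 1.51 FPKM with OTX015 and 3.47 FPKM in control cells. Between ARV-825 and OTX015, 6 of the 17 were called lower and 5 higher in all. The median was -0.01 beside -0.04 over all tested genes, of which 33.4% were lower and 24.7% higher. Without MPO 6 of 16 were lower and 4 higher (median -0.03).

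KIT, a growth factor receptor of progenitors, was listed at 0 in all libraries of both drugs and averaged 0.30 and 0.34 FPKM in RUNX1 shRNA and non-targeting cells, so it was not tested. No drug effect is read from these zeros, since a 0 can be a failed estimate. ELANE, PRTN3 and ANPEP, 3 other reported targets of myeloid cells, averaged below 1 FPKM in every group. With RUNX1 shRNA, 5 of 16 tested targets were called lower and 4 higher, with a median of -0.05 against -0.01 over all tested genes, of which 13.8% were lower and 13.5% higher. Here MPO passed the filter only through the non-targeting libraries, and without it 4 of 15 were lower and 4 higher (median -0.05). CD34 rose by 0.91 and GFI1 by 0.24, and MPO (-0.85), CXCR4 (-0.60), BCL2 (-0.51) and MYC (-0.31) fell, in libraries where MYB itself was not called.

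Genes for coactivators and modifiers of the MYB protein moved in both directions. Of 16, 15 were tested, and 7 were called lower and 7 higher with ARV-825 (median -0.12), where 38.4% of all tested genes were lower and 35.8% higher. With OTX015 4 were lower and 9 higher (median 0.15), beside 33.5% and 36.1% of all tested genes. EP300, the acetyltransferase that binds MYB, had 12.4 FPKM with ARV-825, 24.7 FPKM with OTX015 and 13.5 FPKM in control cells, and CREBBP had 13.3, 20.6 and 16.1 FPKM in the same order. Between ARV-825 and OTX015 the log2 difference was -0.94 for EP300 and -0.59 for CREBBP. PIM1, a kinase that enhances MYB activity, had 48.1 FPKM with ARV-825, 151.9 FPKM with OTX015 and 148 FPKM in control cells, and fell by 1.60 with ARV-825. Of the 15, 5 were called lower, 2 higher and 8 not called between ARV-825 and OTX015 (median -0.05 beside -0.04 over all tested genes), where 33.4% of all genes were lower and 24.7% higher, and of those 2 MYBBP1A (0.15) missed the threshold without ARV-825 replicate 2 or 3 or any OTX015 replicate.

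TAF12, a TFIID subunit reported to stabilise MYB, rose by 1.17 with ARV-825 and 1.14 with OTX015. FBXW7, a ubiquitin ligase subunit that targets MYB, rose by 1.16 with ARV-825 and 0.47 with OTX015. MYBBP1A, a MYB-binding nucleolar protein, fell by 1.18 with ARV-825 and by 1.32 with OTX015, and KAT5, an acetyltransferase, fell by 1.43 with ARV-825 and by 0.33 with OTX015. With RUNX1 shRNA, 6 of the 15 were called higher by limma and none lower (2 at an unadjusted p under 0.05), beside 13.5% of all tested genes higher and 13.8% lower, with a median of 0.03, among them FBXW7 (0.48) and CREBBP (0.42). Of these 6, KMT2A (0.42) and NLK (0.27) lost the call in some alternatives. KMT2A missed it without non-targeting replicate 2, and NLK without RUNX1 shRNA replicate 1 or without non-targeting replicate 2 or 3.

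Most partners of MYBL2 were called with each drug, as were most of all tested genes. Of 16 MuvB, DREAM and E2F genes, which set cell cycle transcription together with MYBL2, 10 were called lower and 5 higher with ARV-825 (median -0.24), beside 38.4% and 35.8% of all tested genes, and DYRK1A was not called. With OTX015 9 were lower and 4 higher (median -0.22), beside 33.5% and 36.1%, and E2F1, E2F3 and TFDP2 were not called. FOXM1, the factor that follows MYBL2 onto MuvB target genes, had 12.6 FPKM with ARV-825, 17.4 FPKM with OTX015 and 26.5 FPKM in control cells, and it fell by 1.01 with ARV-825 and by 0.57 with OTX015. With ARV-825 the MuvB subunit LIN9 fell by 0.95 and the activator E2F2 fell by 1.10, while the MuvB subunit LIN52 rose by 0.99 and E2F1 by 0.54. Between ARV-825 and OTX015, 8 of the 16 were lower and 4 higher (median -0.18), beside 33.4% and 24.7% of all tested genes, and with RUNX1 shRNA 2 were lower and 2 higher (median -0.01), beside 13.8% and 13.5%. Of these, RBBP4 (0.11) missed the threshold without RUNX1 shRNA replicate 1 or 2 or non-targeting replicate 2 or 3.

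Of 20 late cell cycle genes that MYBL2 and MuvB are known to activate, 7 were called lower and 8 higher with ARV-825 (median 0.04), beside 38.4% and 35.8% of all tested genes. With OTX015 6 were lower and 6 higher (median 0.03), beside 33.5% and 36.1%, so these counts lie near those of genes in general. UBE2C, a ubiquitin-conjugating enzyme of mitosis, fell by 0.87 with ARV-825 and by 1.09 with OTX015. The mitotic kinases of the list moved both ways with ARV-825. AURKA fell by 0.77, PLK1 by 0.74 and TTK by 0.37, while CDK1 rose by 0.59, BUB1 by 0.28 and AURKB by 0.16, and NEK2 was not called. KIF20A, a kinesin of cell division, rose by 0.82 with ARV-825 and 0.39 with OTX015. CCNB1, the mitotic cyclin, had 65.6 FPKM with ARV-825, 66.4 FPKM with OTX015 and 63.0 FPKM in control cells and was not called. Between ARV-825 and OTX015, 5 were lower and 5 higher (median 0.03), beside 33.4% and 24.7% of all tested genes. With RUNX1 shRNA 2 were lower, CDC25C (-0.35) and CCNA2 (-0.12), and 7 higher, led by UBE2C (0.29), with a median of 0.02, beside 13.8% of all tested genes lower and 13.5% higher. CCNA2 missed the threshold when any 1 of 5 libraries was left out, all but RUNX1 shRNA replicate 3, and the same holds for CENPE (0.21). AURKB (0.16) missed it without non-targeting replicate 2.

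The 9 other genes for proteins with Myb repeats followed no single direction. DMTF1, a cyclin D-binding factor, rose by 1.06 with ARV-825 and 1.11 with OTX015, and DNAJC1, a chaperone partner with Myb-type repeats, by 1.00 and 0.84. With ARV-825 3 were called higher and 3 lower (median 0.08), beside 35.8% and 38.4% of all tested genes. With OTX015 5 were higher and 1 lower (median 0.23), beside 36.1% and 33.5%, and between ARV-825 and OTX015 1 was higher and 3 lower (median -0.13), beside 24.7% and 33.4%. With RUNX1 shRNA none was called higher by limma (0 at an unadjusted p under 0.05) and 2 lower, TTF1 (-0.19) and MYPOP (-0.18). The median was 0.03, and of all tested genes 13.5% were called higher and 13.8% lower. TTF1 missed the threshold when any library but RUNX1 shRNA replicate 2 was left out, and MYPOP when any but non-targeting replicate 1 was. Between ARV-825 and OTX015 MYPOP (-0.25) missed it without ARV-825 replicate 2 or 3 or OTX015 replicate 1 or 2.

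**Figure D4:**
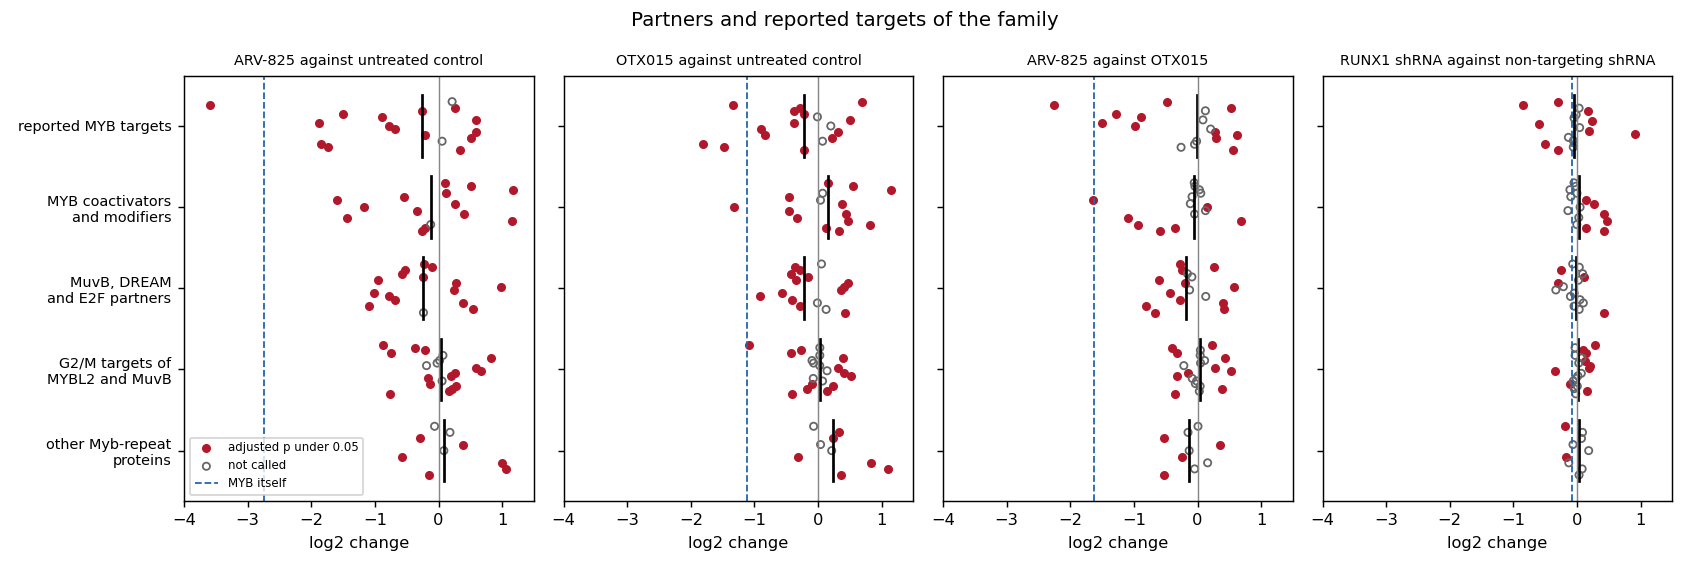
Change of log2(FPKM + 1) (horizontal axes) of each tested gene (points) in 5 lists (rows) for the 4 comparisons (panels), filled where the adjusted p is under 0.05, with the list median (black bar) and MYB itself (dashed line). With ARV-825 MYC (-3.59) alone lies further left than MYB (-2.74), and the list medians run from -0.26 to 0.08.

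HBS1L and AHI1, which flank MYB on its chromosome, did not pass the test with either drug. HBS1L, a ribosome rescue factor next to MYB on the other strand, had 28.4 FPKM with ARV-825, 31.2 FPKM with OTX015 and 31.4 FPKM in control cells. Its log2 changes were -0.14 with ARV-825 (adjusted p = 0.107 by limma) and -0.01 with OTX015 (adjusted p = 0.886), and the first passed without ARV-825 replicate 2 (-0.19, adjusted p = 0.042). AHI1, a cilium gene on the other side, had 2.54, 2.87 and 2.42 FPKM with ARV-825, with OTX015 and in control cells, with changes of 0.04 (adjusted p = 0.779) and 0.18 (adjusted p = 0.18). With RUNX1 shRNA HBS1L fell by 0.26 (adjusted p = 0.00268). ALDH8A1, which lies beyond HBS1L and fell below the filter, averaged 1.80 ± 0.259 FPKM with ARV-825, 0.245 ± 0.065 FPKM with OTX015 and 0.115 ± 0.0686 FPKM in control cells (SD, n = 3 each).

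VCPIP1 and IFT52, the tested neighbours of MYBL1 and MYBL2, rose with both drugs. They were 2 of 4 neighbours tested, where 35.8% of all tested genes were called higher with ARV-825 and 36.1% with OTX015. VCPIP1, a deubiquitinase next to MYBL1 on the same strand, had 17.0 FPKM with ARV-825, 12.8 FPKM with OTX015 and 8.0 FPKM in control cells, rises of 1.00 and 0.60 (adjusted p = 1.39e-05 and 0.00074 by limma). Its part in the small rise of MYBL1 was not tested. IFT52, a transport protein of cilia upstream of MYBL2 on the same strand, had 16.8, 14.2 and 10.5 FPKM in ARV-825, OTX015 and control cells, rises of 0.63 and 0.40. SGK2, a kinase gene beyond IFT52, averaged 2.09 ± 0.937 FPKM with ARV-825, 0.128 ± 0.0671 FPKM with OTX015 and 0.0718 ± 0.0223 FPKM in control cells (SD, n = 3 each). Like ALDH8A1, it fell below the filter, was not tested and was picked after its values were seen. Of 10 listed neighbours 4 were tested, and the others below the filter are not shown.

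The tested genes whose profile over the 9 drug libraries was nearest to that of MYB were SPRY1, a feedback inhibitor of receptor signalling, CXCL8, a neutrophil chemokine, FUT4, a fucosyltransferase, NFE2, a blood transcription factor, and NOG, an inhibitor of bone morphogenetic proteins. Likeness was the root-mean-square difference of log2(FPKM + 1) centred on each gene's own mean, which was 0.11 for SPRY1, 0.13 for CXCL8, 0.18 for FUT4, 0.18 for NFE2 and 0.23 for NOG. CXCL8 averaged 9.31 FPKM with ARV-825, 26.6 FPKM with OTX015 and 61.6 FPKM in control cells. SPRY1 and NOG fell to 0.264 and 0.374 FPKM with ARV-825, where the pseudocount shapes the profile, and with a pseudocount of 0.1 only CXCL8 and FUT4 remained among the nearest 5. In the shRNA table CXCL8, NFE2 and NOG differed more from MYB than in the drug table. The difference there was 0.35 for CXCL8, 0.32 for NFE2 and 0.32 for NOG, against 0.11 for SPRY1 and 0.12 for FUT4. Since MYB itself stayed close to its non-targeting level, a small difference there says little about likeness. The log2 changes with RUNX1 shRNA were 0.06 for SPRY1, -0.72 for CXCL8, -0.31 for FUT4, -0.71 for NFE2 and -0.68 for NOG, beside -0.08 for MYB.

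For MYBL2 the nearest 3 were ATF6B, a stress response factor (0.04), HSD17B4, a peroxisomal enzyme (0.04), and NDUFA11, a respiratory chain subunit (0.04). They remained the nearest 3, in the same order, with a pseudocount of 0.1. Their levels varied as little as that of MYBL2, for example 49.9 FPKM for ATF6B with ARV-825, 47.3 FPKM with OTX015 and 49.4 FPKM in control cells. HSD17B4 and NDUFA11 had their lowest value in control replicate 1, as MYBL2 did.

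**Figure D5:**
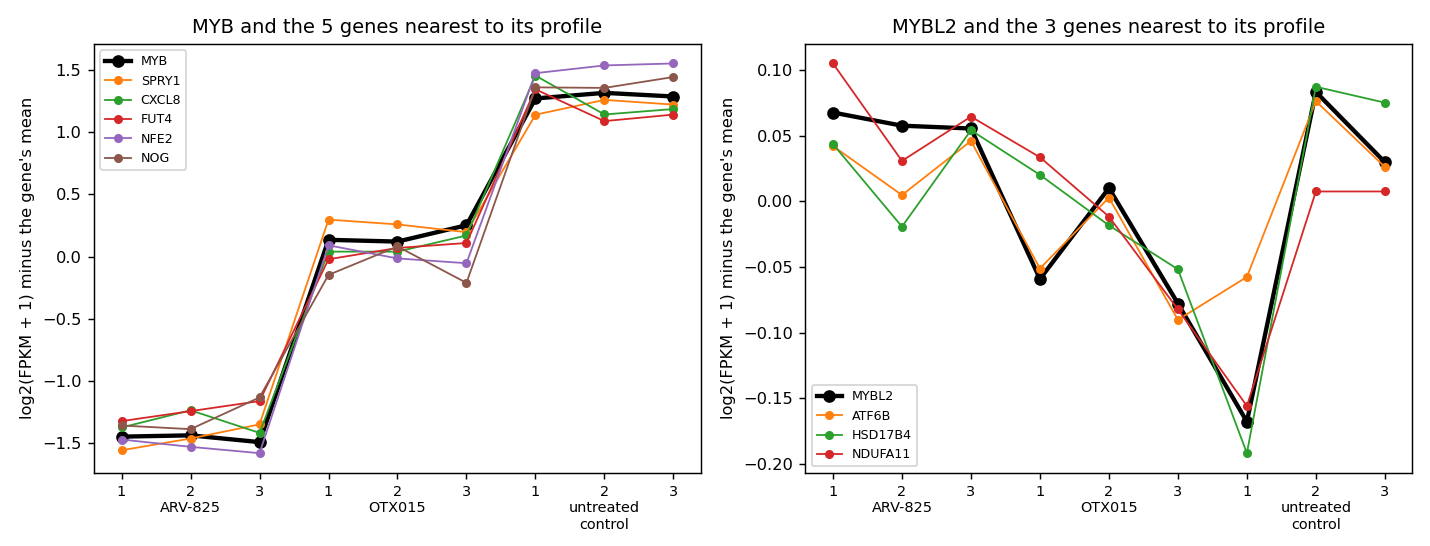
Log2(FPKM + 1) minus the gene's own mean (vertical axes, different ranges) in each drug library (horizontal axes) for MYB with the 5 genes nearest to it and MYBL2 with the nearest 3 (each member in black). The MYB profile steps through 3 levels, with a log2 difference of -1.62 between ARV-825 and OTX015 and of -1.12 between OTX015 and control cells, whereas the MYBL2 panel spans a far smaller range with its lowest point in control replicate 1.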

How the data were processed

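RNA of 15 OCI-AML5 libraries was sequenced, with groups read from each library's treatment label. Drug libraries (9) and shRNA libraries (6) have a deposited table each, whose values were read as FPKM that the authors had quantile normalized separately per table. The headers state no unit, and this reading rests on Cufflinks 2.0, listed with TopHat2 2.0 and hg19 per the submitters' processing notes, on an abbreviation in the table names and on the values. A change in total RNA per cell therefore cannot be seen. Of 19620 entries, 16 pseudoautosomal copies were left out and 28 symbols turned into dates were restored.

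The analysis used log2(FPKM + 1), which shrinks changes at low levels. Genes averaging 1 FPKM or more were tested with limma 3.58.1 in R 4.3.3 (mean-variance trend, two-sided, Benjamini-Hochberg over all tested genes, threshold 0.05), with 1 fit for the drug table and 1 for the shRNA table. MYBL1 was read from the fit without a filter. The script was tested on simulated data. Replicate numbers did not pair the libraries. Alternatives were pseudocounts of 0.1 and 0.5, no filter, a mean of at least 5 FPKM, median-ratio rescaling, no trend, a replicate block, fits of the compared groups alone and leaving out each library. Named from each list were up to 4 called genes per direction with the largest change, plus MYC, BCL2, KIT, FOXM1, HBS1L and AHI1, and some genes beyond these were picked after their values were seen. The members and lists were chosen with earlier results of these data known. Some of the genes nearest to MYBL2 are not reported here.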

Additional observations from a re-analysis of the deposited data

How the results depend on the processing

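The MYB falls with ARV-825 (-2.79 to -2.73), with OTX015 (-1.16 to -1.10) and between ARV-825 and OTX015 (-1.66 to -1.58) passed the threshold in all 14 alternatives each, and the MYBL1 rises (0.20 to 0.71 with ARV-825, 0.25 to 0.83 with OTX015) in all 12, the upper ends with a pseudocount of 0.1. The MYB difference with RUNX1 shRNA ran from -0.10 to -0.05 (adjusted p = 0.0519 to 0.186 by limma) and never passed. The MYBL2 difference between ARV-825 and OTX015 passed only with median-ratio rescaling (0.15, adjusted p = 0.0432), which moved the median of all genes by at most 0.04, and the cause was not tested. With RUNX1 shRNA, 1512 genes were called lower, against 966 to 1436 with 1 library left out, the lowest counts being 978 without non-targeting replicate 2 and 966 without non-targeting replicate 3. Same-numbered libraries did not deviate together (correlations of -0.32 to 0.06 in the drug table and -0.003 to 0.06 in the shRNA table). Differently numbered libraries ran from -0.22 to 0.41 in the drug table and from -0.07 to 0.02 in the shRNA table. The highest, 0.41, was that of ARV-825 replicate 2 with OTX015 replicate 3, and its origin was not tested. A replicate block changed no call of a member, with MYB at -2.74, -1.12, -1.62 and -0.08. Such a block cannot take up what differently numbered libraries share. No result reversed its direction past the threshold. Depth is unknown, so the precision of MYBL1, at under 1 FPKM, cannot be given beyond the spread of 3 libraries.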
